A study of Mus musculus with 17 samples.

Results

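The genes described here are 36 components and modifiers of the basement membrane and the vascular matrix, taken as a named list from the 49585 genes of each count table and read in endothelial cells sorted from the bone marrow of mice. The list holds 3 network and short-chain collagens, 2 multiplexin collagens, 7 laminin chains, 4 nidogens and heparan sulfate proteoglycans, 4 matricellular and adhesive glycoproteins, 9 elastic fibre genes, 3 genes grouped as multimerins and Egfl7, and 4 matrix proteases and protease inhibitors. KO mice carried an inducible Cre recombinase driven by the promoter of Cdh5 (VE-cadherin), an endothelial junction gene, together with Eng alleles whose exons 5 and 6 are flanked by loxP sites. Eng encodes endoglin, a co-receptor for ligands of the TGF-beta and BMP family, and the series asks what its loss does to marrow endothelium. Tamoxifen, which activates the recombinase, was given at 8 weeks of age, and marrow was taken 2 or 4 weeks later. There were 4 WT and 4 KO libraries of 2 weeks and 5 WT and 4 KO libraries of 4 weeks, from males and females. The labels give tamoxifen as the treatment of WT libraries too, and do not say whether those mice carried the recombinase. The labels' protocol describes crushed long bones and a gate on CD31+, Sca1+ cells that lack CD45 and Ter119, while the design text gives the gate without Sca1. The libraries are named below by sex and number (f1, m2). The labels do not state that each came from a separate animal, so p-values measure only the spread between these samples.

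A basement membrane is the thin sheet of matrix on which endothelial cells sit. Its scaffold is made of a network of collagen IV and a network of laminin, each laminin being a trimer of an alpha, a beta and a gamma chain, and nidogens and the proteoglycan perlecan connect them. Fibrillin, elastin and the fibulins build elastic fibres, lysyl oxidases cross-link collagen and elastin, and metalloproteinases and their inhibitors remodel the matrix. In marrow, arterial vessels have a continuous basement membrane, while that of the sinusoids is known to be thin and interrupted.

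The deposited values are whole-number read counts per gene, 20477400 to 40882715 per library. Levels are given as CPM, a gene's reads scaled to the library's total, and comparisons between genes use TPM, which also divides by exon length. The libraries of 4 weeks held reads in 15996 to 21235 genes and 4.66 to 8.99% mitochondrial counts, and those of 2 weeks in 10886 to 13583 genes with 22.2 to 29.5%. All 10 pan-endothelial markers had more than 3 counts in all 17 libraries. The targeted gene Eng averaged 1053 ± 252 CPM over the WT libraries of 2 weeks and 274 ± 51.8 CPM over the KO libraries (SD, 4 of each). At 4 weeks it averaged 2587 ± 122 CPM (WT, 5 libraries) and 779 ± 640 CPM (KO, 4 libraries). No KO library overlapped WT, although KO m2 of 4 weeks kept 63.7% of the WT mean against 10.6 to 33.8% in the other 3. Transcripts of other cells were not even across libraries: summed neutrophil markers reached 4104 CPM in KO m2 and 3150 CPM in KO m3 of 2 weeks and at most 238 CPM elsewhere. In bulk RNA of sorted cells, fewer cells of a type and less RNA per cell cannot be told apart.

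Col4a1 and Col4a2 encode the chains of the common collagen IV trimer and lie head to head on chromosome 8, Col4a1 at chr8:11198423-11312826 on the minus strand and Col4a2 at chr8:11312805-11449287 on the plus strand (GENCODE annotation of GRCm38). Their first exons overlap by 22 bases, shown here because both genes rose between 2 and 4 weeks in both genotypes. The plus strand of the stretch chr8:11312801-11312830 is printed, read from the reference genome, with the bases annotated as transcribed from both strands in capitals.
Col4a1 and Col4a2 shared start: cggcAGTGCGCGGGCGGCGTCTCCAAgggg
Whether reads were counted by strand is not given in the sources used here, so reads from those bases cannot be assigned with certainty, but they are few beside exon lengths of 7.46 and 6.62 kb. Other genes of the list overlap with neighbours as well. Col4a2 also shares exonic bases with Gm15419, Col15a1 with Gm12426, Lama3 with Gm29200, Nid1 with Gm48682, Ecm1 with Mir7014, Fbn1 with Gm9913, Eln with Gm30003, Loxl2 with Gm27177 and Mir6950, and Lox with a gene that has only a clone name. Egfl7 shares exonic bases with Agpat2, Gm20532, Mir126a and Mir126b, Timp3 with Syn3, Nid2 with Rtraf and Fn1 with Apol7d, and the counts of all these genes are uncertain to that extent.

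Upstream sequence was in the RefSeq promoter table (GRCm38.p6) for 25 of the 36 genes, as 32 windows from 250 bases before to 50 bases after a start. The letters GGCGCC, a motif bound by SMAD proteins of the BMP branch and a palindrome, were in 7 of the 32 windows (21.9%), against 11.9% of all 32851 windows. They belonged to Agrn, Col4a1, Fbln5, Hspg2, Lama5 and Lamb1, and the window of Hspg2 held them at 2 positions, of which the stretch printed here holds 1. The AP-1 motif TGANTCA, searched on both strands, was in 2 windows (6.25%, against 7.81% of all), those of Ecm1 and Efemp1. The ETS motif CCGGAAGT, searched on both strands, was in 0 windows, against 3.89% of all. Stretches upstream of Hspg2 and Lama5 are printed because these genes recur in the comparisons below. They cover chr4:137468553-137468768 on the plus strand and chr2:180225860-180226109 on the minus strand, each 5′ to 3′ and ending at the base before the start, with GGCGCC in capitals.
Hspg2: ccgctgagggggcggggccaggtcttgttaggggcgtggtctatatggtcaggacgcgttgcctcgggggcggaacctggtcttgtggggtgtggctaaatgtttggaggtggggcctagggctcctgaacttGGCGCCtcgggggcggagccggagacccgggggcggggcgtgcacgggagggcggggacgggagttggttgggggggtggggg
Lama5: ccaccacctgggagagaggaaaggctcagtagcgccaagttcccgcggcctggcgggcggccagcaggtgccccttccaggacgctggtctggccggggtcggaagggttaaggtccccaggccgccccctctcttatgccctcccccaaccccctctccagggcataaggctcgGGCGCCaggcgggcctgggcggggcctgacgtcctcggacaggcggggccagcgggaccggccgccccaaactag
A match of these letters is a description and was not tied to any measured value.

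The matrix genes were dominated by a few transcripts. As the mean of the WT group means of 2 and 4 weeks, Sparc was the most abundant per length at 3305 TPM, followed by Sparcl1 at 1986, Egfl7 at 511, Col4a1 at 488, Col4a2 at 397, Mmrn2 at 329, Fbln2 at 294, Timp3 at 233, Adamts1 at 176 and Fbln5 at 112 TPM. The order was not the same at both times: at 2 weeks Mmrn2 (117 TPM) came after Fbln2 (144) and Timp3 (123), and at 4 weeks Col4a1 (816 TPM) came before Egfl7 (643.5). Sparc is a secreted collagen-binding glycoprotein, Sparcl1 its paralog, Egfl7 an endothelial secreted protein, and Mmrn2 (multimerin 2) an endothelial matrix glycoprotein. Sparc stood at 4771, 5758, 6167 and 6432 CPM in WT and at 4719, 5431, 5860.5 and 6366 CPM in KO at 2 weeks, each group in ascending order, as below. At 4 weeks it stood at 4224, 4756, 6158, 6621 and 6755 CPM in WT and at 3449.7, 3829, 7058 and 8111 CPM in KO. The KO libraries of 4 weeks lay outside the WT range on both sides. Sparc alone took 49.2 to 63.6% of the counts of all 36 genes at 2 weeks and 18.0 to 38.9% at 4 weeks. Egfl7 stood at 648, 691, 742 and 798 CPM in WT and at 581, 754, 762 and 825 CPM in KO at 2 weeks. Its values at 4 weeks were 725, 839.6, 854, 1072 and 1169 CPM in WT and 821, 983, 1092 and 1174 CPM in KO, so the genotypes overlapped at each time and the times overlapped within each genotype.

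The chains of a laminin trimer were not equally abundant. By the same mean of WT group means, the beta chains Lamb2 and Lamb1 averaged 84.6 and 40.8 TPM, the gamma chain Lamc1 27.8 TPM, and the alpha chains Lama4 and Lama5 31.5 and 17.6 TPM. Lama3 averaged 2.23 TPM. In WT of 2 weeks alone Lamc1 (8.86 TPM) came before Lama4 (8.55 TPM). Lamb2 ranged from 0 to 57.6 TPM there (mean 28.7), beside a mean of 22.8 TPM for Lamb1. Lamb3, a beta chain of epithelial laminin, had more than 3 counts in 1 of 17 libraries and averaged 0.000907 TPM over WT. Fbln1 and Efemp1, both fibulin family genes, and Loxl2, a lysyl oxidase, averaged 0.132, 0.262 and 0.226 TPM. Of these 4 lowest genes, Loxl2 had more than 3 counts in 4 of 5 WT and 4 of 4 KO libraries of 4 weeks, and the other 3 were at 0 in 2 or more libraries of each group.

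**Figure D1:**
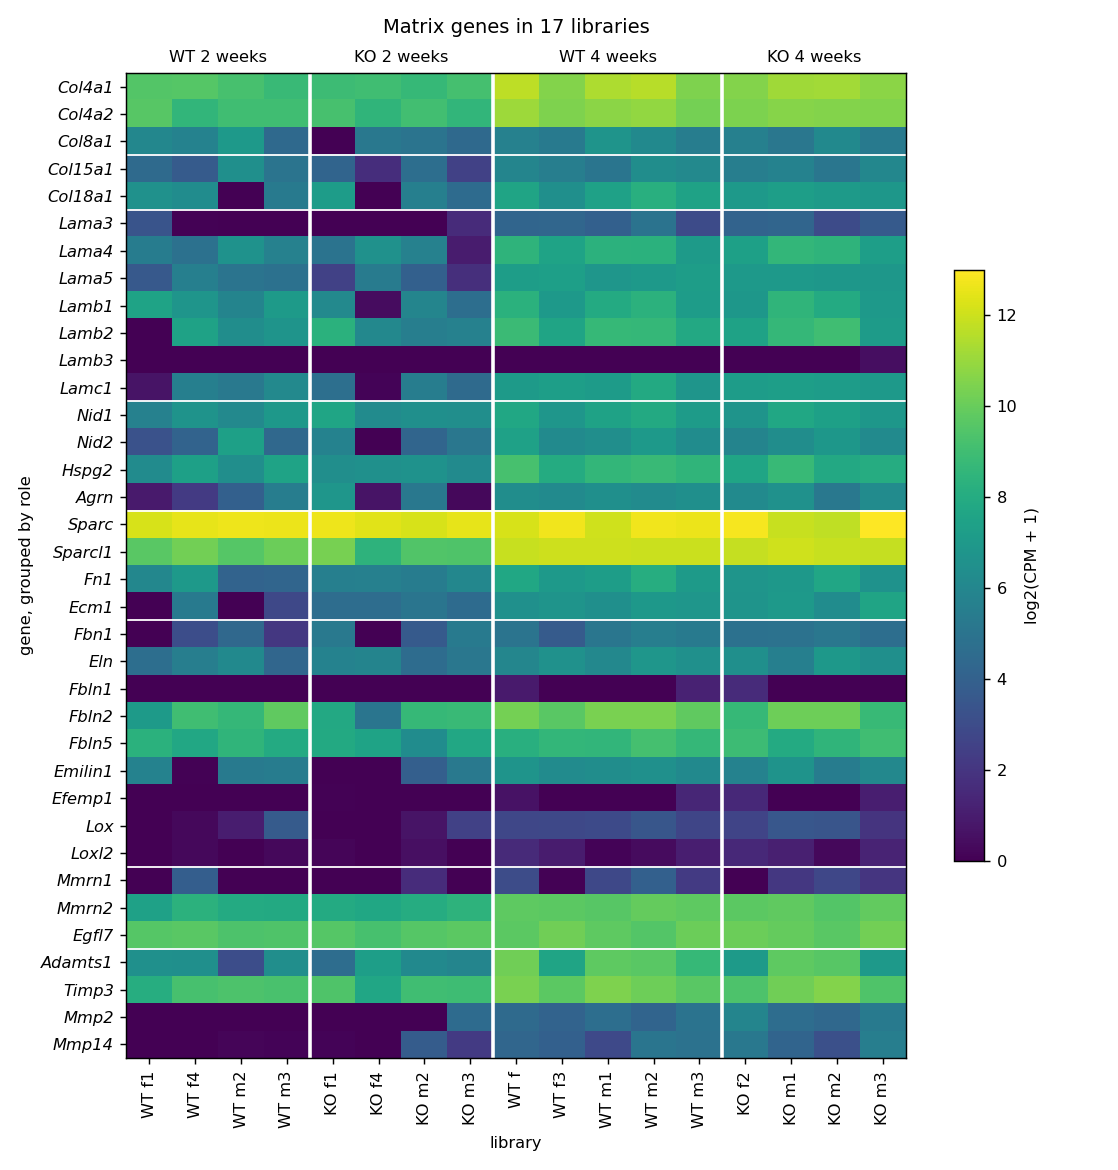
Level of each of the 36 matrix genes (rows, grouped by role) in each of the 17 libraries (columns), as log2(CPM + 1) in colour. Sparc is the brightest row in every library but KO m1 and m2 of 4 weeks, where Sparcl1 is, and scattered dark cells at 2 weeks mark genes with 0 counts in single libraries.

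Detection was patchier at 2 weeks. Of the 36 genes, 22 to 31 had more than 3 counts in a library of 2 weeks and 32 to 35 in a library of 4 weeks. At 2 weeks 28 of 144 gene and library values were 0 in WT and 30 of 144 in KO, against 11 of 180 and 9 of 144 at 4 weeks. A count of 0 allows up to 0.0734 to 0.147 CPM, depending on the library (3 counts of its total). This limit covers counting error only, since PCR reads without molecular identifiers are not independent molecules. Genes of middling level could be absent from 1 library and well detected in the next. Col18a1, which encodes the precursor of endostatin, was at 0, 39.3, 78.2 and 92.6 CPM in WT and 0, 22.3, 46.9 and 145 CPM in KO at 2 weeks. Among genes over 3 counts in all libraries of a group, the median coefficient of variation was 46.8% in WT and 41.6% in KO at 2 weeks, and 28.9% and 35.8% at 4 weeks.

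Loss of endoglin was compared first at 2 weeks, with edgeR's quasi-likelihood test over all genes and sex as a covariate. No gene of the list passed: 0 of the 28 tested had an adjusted p (Benjamini-Hochberg) under 0.05, as was the case for all 10477 genes (0%), and 0 had an unadjusted p under 0.05, against 2.63% of all. The last count was 1 without KO f1, without KO m3 and without both KO m2 and m3. The 8 not tested for low counts were Lama3, Lamb3, Fbln1, Efemp1, Loxl2, Mmrn1, Mmp2 and Mmp14. The groups overlapped for every one of the 28, while 3.36% of all genes had groups that did not. Of the 28, 11 were higher and 17 lower in KO, with a median log2 difference of −0.29 (−0.06 for all genes). Without KO m2 and m3 the split was 9 against 19, with a median of −0.31. The median rested on single libraries: it was −0.65 without KO f1 (5 against 23), −0.11 without KO m3, −0.12 without KO f4 and −0.15 without WT f4 (13 against 15). DESeq2 called 149 of all genes and 0 of the list, with 1 of the list at an unadjusted p under 0.05. No marker of other cells was called at this time either (edgeR), but marker levels differed between the libraries of the genotypes. Summed erythroid markers stood at 61.4 to 195 CPM in WT and 278 to 1248 CPM in KO, without overlap, and all 8 tested neutrophil markers were higher in KO, with a median log2 difference of 4.73, although the neutrophil sums overlapped (22.6 to 110.0 CPM in WT, from 107 CPM in KO). Summed osteoblast markers stood at 149 to 252 CPM in WT and 48.9 to 163 CPM in KO, with all 4 tested lower in KO (median −0.77). Summed marrow stromal markers stood at 1399 to 1951 CPM in WT and 1076 to 1423 CPM in KO, with 3 of 5 tested lower (median −0.38). The lower ones were Cxcl12 (−0.38 ± 0.18, SE), Kitl (−0.63 ± 0.16) and Pdgfrb (−3.46 ± 8.15). Lepr (1.84 ± 2.06) and Ebf3 (5.10 ± 7.50) were higher. Of 9 arterial endothelial markers, which include Fbln5, 7 were lower in KO (median −0.66), and their sum stood at 2480 to 2602 CPM in WT and 2093 to 2501 CPM in KO. The osteoblast, stromal and arterial sums overlapped between genotypes. Their part in the matrix values was not tested.

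By role, the 3 network and short-chain collagens were all lower in KO at 2 weeks, with a median log2 difference of −0.32. Col4a1 stood at 442, 593, 739.7 and 758 CPM in WT and at 422, 485, 514 and 564 CPM in KO, a log2 difference of −0.32 ± 0.18 (SE; 95% interval −0.75 to 0.11). Col4a2 stood at 372, 510.3, 519 and 780.2 CPM in WT and at 361, 367, 531 and 581 CPM in KO (−0.26 ± 0.27). Both chains overlapped between genotypes, and the KO libraries did not reach the highest WT value. Of 5 tested laminin chains 4 were lower and 1 higher in KO, with a median of −0.82 and wide errors: Lamb1 was at −1.68 ± 1.21. Hspg2, which encodes perlecan, the heparan sulfate proteoglycan of basement membranes, stood at 75.0, 83.3, 163 and 181 CPM in WT and at 72.9, 84.3, 89.5 and 96.0 CPM in KO. The difference was −0.56 ± 0.36 (−1.42 to 0.30). WT f1 and m2 lay among the KO values, and WT f4 and m3 above them.

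Fbln5, an elastic fibre assembly protein that is also an arterial marker, had the smallest p of the list at 2 weeks. It stood at 219, 246, 314 and 359.8 CPM in WT and at 78.5, 186, 222 and 233 CPM in KO, a log2 difference of −0.66 ± 0.37 (−1.53 to 0.21). The lowest WT library lay below the 2 highest KO libraries. Fbln2, fibulin 2, stood at 135, 395, 516 and 908 CPM in WT and at 31.8, 224, 422 and 447 CPM in KO, with wide overlap (−0.98 ± 0.68). On the other side of 0, Nid1, a nidogen linking laminin to collagen IV, stood at 51.7, 67.7, 101 and 118 CPM in WT and at 76.2, 83.3, 86.3 and 195 CPM in KO (0.34 ± 0.43). Its direction rested on KO f1: without that library the difference was −0.07. Fbn1, which encodes fibrillin 1, stood at 0, 3.29, 7.26 and 19.7 CPM in WT and at 0, 11.6, 36.6 and 39.1 CPM in KO (1.77 ± 2.43). Agrn, the proteoglycan agrin, stood at 0.895, 3.64, 14.6 and 44.7 CPM in WT and at 0.192, 0.589, 36.3 and 113 CPM in KO (1.92 ± 2.79). For both, leaving out KO f1 turned the sign, to −0.32 and −1.19, and the spread within a genotype was larger than the difference between genotypes.

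At 4 weeks 34 of the 36 genes were tested and again none passed. With edgeR 0 of 34 had an adjusted p under 0.05 (0% of 15209 genes) and 0 an unadjusted p under 0.05 (2.77% of all). The last count was 2 without WT f3, without WT m3 or with the replicate block, and 3 without KO m1 or without KO m2. The groups of all 34 overlapped, against 1.19% of all genes whose groups did not. DESeq2 called 17 of all genes and 0 of the list, with 2 of the list at an unadjusted p under 0.05. Lower values in KO were more common than higher ones, 25 against 9, with a median log2 difference of −0.18, while 51.3% of all genes were higher in KO with a median of 0.01. Without WT m2 the split was 20 lower against 14 higher, with a median of −0.06, and without WT m3 the median was −0.26. All 3 network and short-chain collagens, both multiplexins, all 6 tested laminin chains and all 4 nidogens and proteoglycans were on the lower side, and all of their 95% intervals included 0. Summed erythroid markers stood at 165 to 1273 CPM in WT and 611 to 2900 CPM in KO. Summed osteoblast markers stood at 239 to 311 CPM in WT and 153 to 269 CPM in KO, with all 4 tested lower in KO (median −0.60), and 6 of 8 marrow stromal markers were lower (median −0.48). The part of these cells was not tested. The elastic fibre genes split into 3 higher and 5 lower, and the proteases and inhibitors into 2 and 2.

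The smallest p-values at 4 weeks belonged to Fbln2, Hspg2 and Col18a1. Fbln2 stood at 821, 905, 1249, 1319.9 and 1330.3 CPM in WT and at 409, 426, 1106 and 1122 CPM in KO (−0.67 ± 0.32, −1.40 to 0.05). KO f2 and m3 lay below the WT range and KO m1 and m2 inside it. Hspg2 stood at 251, 365, 384, 446 and 600.0 CPM in WT and at 199, 229, 260.2 and 425 CPM in KO (−0.57 ± 0.28, −1.21 to 0.08). KO f2 and m2 were below the WT range, and KO m1, the highest KO library, lay among the upper WT values. Col18a1 stood at 87.8, 173, 177, 188 and 288 CPM in WT and at 117, 124, 132 and 152 CPM in KO (−0.48 ± 0.24). WT f3 was the lowest of all 9 libraries and the other 4 WT libraries were above every KO library.

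On the higher side at 4 weeks, Mmp2 (gelatinase A) stood at 16.4, 17.3, 21.3, 25.1 and 29.6 CPM in WT and at 19.8, 23.6, 38.4 and 59.6 CPM in KO (0.69 ± 0.36). Ecm1, a secreted glycoprotein of the matrix, stood at 88.3, 89.6, 106, 111 and 122 CPM in WT and at 79.9, 104, 127 and 194 CPM in KO (0.28 ± 0.26). For both genes 2 KO libraries were above the WT range. The Egfl7 difference was 0.17 ± 0.19. Nid1 stood at 114, 138, 176, 212 and 237 CPM in WT and at 104, 117, 166 and 215 CPM in KO (−0.27 ± 0.25). Fbln5 stood at 288, 378, 390.2, 404 and 571 CPM in WT and at 242, 367, 476 and 509 CPM in KO, with a difference of −0.01 ± 0.27.

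The 95% interval of a KO effect at 4 weeks was narrow for Sparcl1 and Mmrn2 and wider for the other genes given here. Sparcl1 stood at 3761, 3883, 3953, 4076 and 4137 CPM in WT and at 3652, 3724, 3875 and 4199.9 CPM in KO, a log2 difference of −0.03 with a 95% interval of −0.24 to 0.19. Mmrn2 stood at 779, 828, 869, 883 and 956 CPM in WT and at 740.1, 828, 914 and 944 CPM in KO, a difference of 0.00 (−0.26 to 0.27). The genotypes interleaved in both genes. Col4a2 stood at 1217, 1439, 1685, 1904 and 2182 CPM in WT and at 1374, 1489, 1521 and 1579.8 CPM in KO (−0.14, −0.50 to 0.21). Col4a1 stood at 1441, 1527, 2662, 3068 and 3359 CPM in WT and at 1503, 1707, 2211 and 2312 CPM in KO (−0.33, −0.94 to 0.29). The interval of Lama5 was −0.46 to 0.16, and that of Sparc was wider, at −0.66 to 0.70. Fbn1 stood at 12.4, 31.3, 32.9, 38.2 and 45.8 CPM in WT and at 24.9, 28.1, 28.6 and 34.7 CPM in KO (−0.14 ± 0.29). Agrn stood at 73.2, 76.9, 80.3, 88.3 and 88.4 CPM in WT and at 36.1, 72.7, 74.8 and 95.6 CPM in KO (−0.21 ± 0.26).

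**Figure D2:**
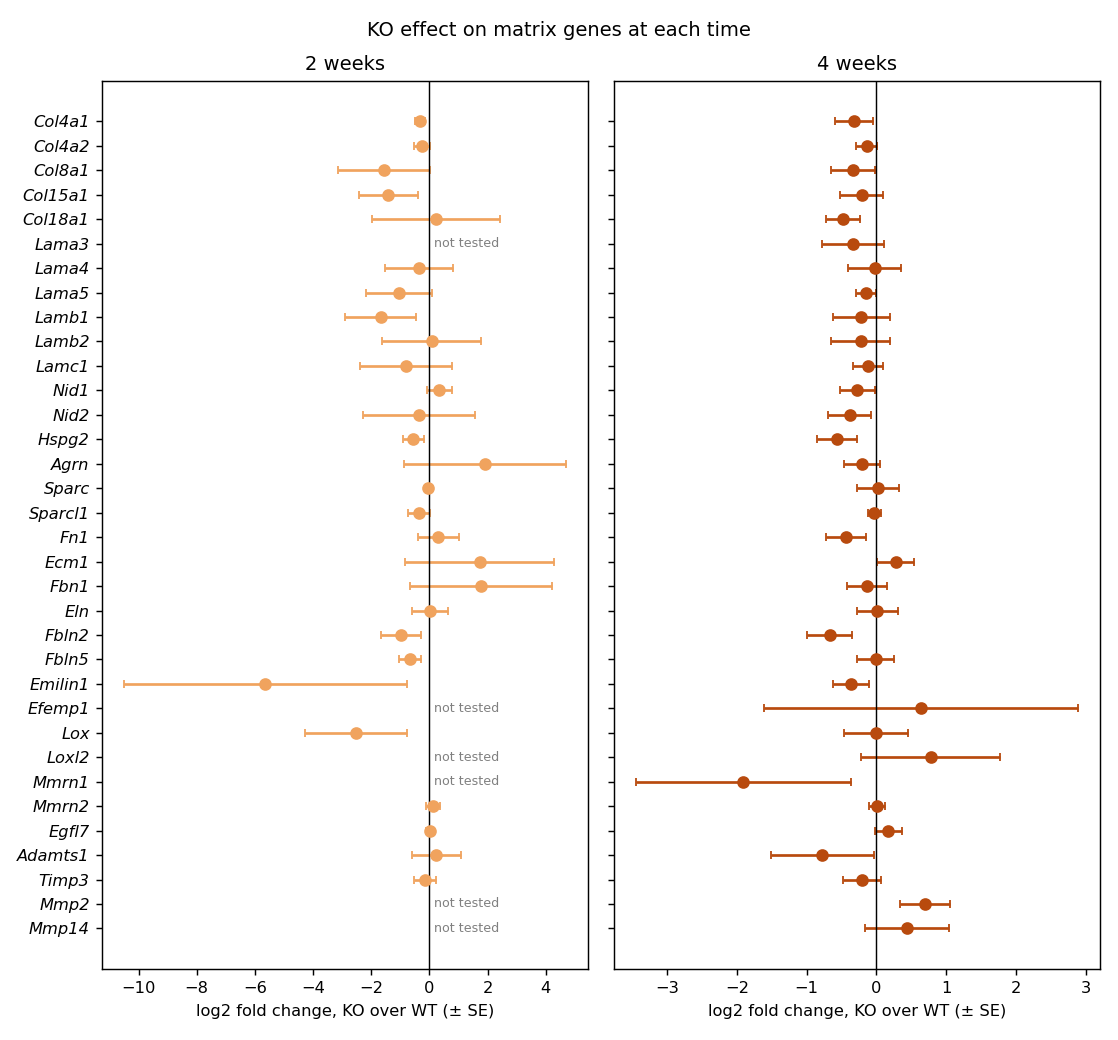
Log2 fold change of KO over WT for the matrix genes at 2 weeks (left) and 4 weeks (right), as points with standard errors from edgeR. The horizontal scales differ: values reach from −5.64 to 1.92 at 2 weeks and from −1.91 to 0.78 at 4 weeks, and no gene passed the adjusted threshold at either time.

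A single KO effect over both times was fitted to all 17 libraries with sex and time as covariates. Again 0 of 34 genes had an adjusted p under 0.05, beside 1 of 15703 genes overall (0.00637%). Hspg2 and Fbln2 had an unadjusted p under 0.05, as did 3.02% of all genes, and both were lower in KO. The count of 2 was 0 without WT m3 of 2 weeks and with the replicate block, 1 to 3 without any other single library, 1 with no sex term and 5 with DESeq2. It was 1 without WT f, KO f2 or KO m3 of 4 weeks and without WT f4, KO f1 or KO f4 of 2 weeks. The common log2 difference of Hspg2 was −0.56 ± 0.22 (−1.03 to −0.09, edgeR adjusted p = 0.9997), and that of Fbln2 −0.86 ± 0.39 (−1.70 to −0.03, edgeR adjusted p = 0.9997). Both intervals leave out 0, but the values do not hold up once all genes are counted. Col15a1, a multiplexin collagen, was at −0.86 ± 0.47, and Col4a1 at −0.30 ± 0.17. The largest positive estimates were those of Mmp2 (4.04 ± 2.35) and Mmp14, a membrane-bound metalloproteinase that activates Mmp2 (2.76 ± 1.44). Both had almost no counts in WT at 2 weeks, while in KO of that time Mmp2 reached 22.05 CPM in m3 and Mmp14 12.5 CPM in m2. Their estimates are set by the model against counts at or near 0 and have no readable size. Ecm1 followed at 0.86 ± 0.97.

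The difference between the KO effects of the 2 times was tested as an interaction. It passed for 0 of 34 genes, against 12 of 15703 overall (0.0764%), and for 2 genes before adjustment, against 9.81% of all. The count of 2 was 1 without KO m2 of 2 weeks. DESeq2 called 1303 of all genes and the same 2 of the list. Those were Mmp2, at −9.41 ± 3.42 on the log2 scale (edgeR adjusted p = 0.42), and Mmp14, at −5.15 ± 1.95 (edgeR adjusted p = 0.422). Both were too low to be tested at 2 weeks alone, so these sizes are model estimates and cannot be read as folds. Mmp2 had 0 counts in 7 of the 8 libraries of 2 weeks and 22.05 CPM in the eighth, KO m3. Mmp14 stood at 0, 0.0263, 0.106 and 0.123 CPM in WT and at 0.0295, 0.0749, 3.55 and 12.5 CPM in KO at 2 weeks, the last 2 in m3 and m2. These are the KO libraries with the most neutrophil transcripts, whose part was not tested. Without KO m3 the Mmp2 value was 0.74, and without both libraries the values were 0.84 for Mmp2 and 0.31 for Mmp14. The other genes named by their p-values were Nid1 (−0.60 ± 0.50) and, on the positive side, Fbln5 (0.64 ± 0.45), Col15a1 (1.22 ± 0.91) and Lamb1 (1.55 ± 1.19).

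More matrix genes passed the test between times than between genotypes. Between 2 and 4 weeks, 7 of 34 tested genes rose in WT and none fell, and 6 rose in KO and none fell (edgeR, adjusted p under 0.05). Of all 15703 genes 5.03% rose and 1.88% fell in WT, and 4.84% rose and 1.49% fell in KO. Col4a1, Col4a2, Hspg2, Sparcl1 and Mmrn2 rose in both genotypes. Without KO m2 and m3 of 2 weeks 7 genes were called in KO. The median log2 change of the 34 genes was 1.56 in WT and 1.51 in KO, against 0.42 and 0.49 for all genes. In each genotype 16 genes had all libraries of 4 weeks above all of 2 weeks, against 16.1% of all genes in WT and 21.4% in KO. The libraries of the 2 times also differ in genes detected and in mitochondrial share, as given above, so time and whatever else set the library sets apart cannot be told apart.

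The collagen IV chains rose together. From the 2-week values given above, Col4a1 went to between 1441 and 3359 CPM in WT and between 1503 and 2312 in KO, log2 changes of 1.63 ± 0.25 (edgeR adjusted p = 0.00157) and 1.65 ± 0.26 (edgeR adjusted p = 0.00219). Col4a2 rose by 1.32 ± 0.21 in WT and 1.41 ± 0.22 in KO. Every library of 4 weeks was above every library of 2 weeks for both genes. Hspg2 rose by 1.36 ± 0.32 in WT (edgeR adjusted p = 0.023) and 1.34 ± 0.34 in KO (edgeR adjusted p = 0.0324). The WT call of Hspg2 was lost without WT f of 4 weeks or without WT f1 or m2 of 2 weeks, with adjusted p up to 0.0704. Its KO call was lost without KO f2, m1 or m3 of 4 weeks or without any one KO library of 2 weeks, with adjusted p up to 0.135. All 6 tested laminin chains were higher at 4 weeks in both genotypes, with medians of 1.83 and 2.27, and 1 of them passed the test. That was Lama5 in KO, at 2.42, 4.79, 14.9 and 41.4 CPM at 2 weeks and 114, 115, 126 and 130.1 CPM at 4 weeks (2.82 ± 0.70, edgeR adjusted p = 0.0288). The call was lost without KO f2, m1 or m3 of 4 weeks or without KO f1, m2 or m3 of 2 weeks, with adjusted p up to 0.113. In WT it went from 11.2, 28.0, 30.6 and 47.1 CPM to 112, 127, 147, 149 and 161 CPM (1.96 ± 0.63, edgeR adjusted p = 0.0769).

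Sparcl1 and Mmrn2 rose in both genotypes. Sparcl1 stood at 762, 817, 1059 and 1195 CPM in WT and at 337, 686, 705 and 1272 CPM in KO at 2 weeks, and the lowest library of 4 weeks stood at 3652 CPM. Its log2 change was 1.74 ± 0.27 in WT (edgeR adjusted p = 0.00178) and 2.08 ± 0.28 in KO (edgeR adjusted p = 0.000777). Mmrn2 stood at 169.7, 236, 247 and 326 CPM in WT and at 211, 248, 263 and 339 CPM in KO at 2 weeks, and changed by 1.499 ± 0.18 and 1.35 ± 0.19 (edgeR adjusted p = 0.000304 and 0.00104). Sparc and Egfl7 did not pass the test. The Sparc changes were −0.33 ± 0.25 and −0.28 ± 0.27, and those of Egfl7 0.08 ± 0.18 and 0.17 ± 0.19. These fits use TMM scaling, which lowers changes from 2 to 4 weeks by 0.31 on the log2 scale compared with CPM. By CPM, mean Sparc at 4 weeks was 0.986 of that at 2 weeks in WT and 1.003 in KO, so its sign in KO depends on the scaling. By group means Sparc was the most abundant matrix gene at both times, and Sparcl1 came near it per length: the mean Sparcl1 level in WT went from 616 to 3356 TPM and that of Sparc from 2879.9 to 3731 TPM.

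Mmp2 and Mmp14 had almost no counts in WT at 2 weeks. Mmp2 had 0 counts in all 4 WT libraries of 2 weeks and a mean of 21.9 CPM at 4 weeks (edgeR adjusted p = 0.0447). That mean was 238 times the highest limit of those 4 libraries, set by 3 counts. The limit covers counting error only, so it puts no lower bound on the fold. The call held in 8 of 22 alternative settings, and was lost with no filter on low counts and when any single WT library, or any single library of 4 weeks, was left out. Mmp14 rose in WT, from between 0 and 0.123 CPM to between 6.30 and 31.6 CPM (edgeR adjusted p = 0.0142). It had at most 4 counts in a WT library of 2 weeks and was left out of the fit of 2 weeks alone, so the size of its rise cannot be read. In KO, where KO m2 and m3 of 2 weeks held Mmp14 reads, its change was 3.13 ± 1.49. Adamts1, a secreted protease of proteoglycans, was at 7.30 to 89.1 CPM at 2 weeks and 188 to 1137 CPM at 4 weeks in WT (3.02 ± 0.88, edgeR adjusted p = 0.0539). Ecm1 stood at 0, 0, 6.07 and 37.9 CPM in WT and at 22.5, 23.6, 23.9 and 32.6 CPM in KO at 2 weeks. Every library of 4 weeks was above those values, but the changes of 3.14 ± 1.495 and 2.08 ± 1.42 did not pass.

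**Figure D3:**
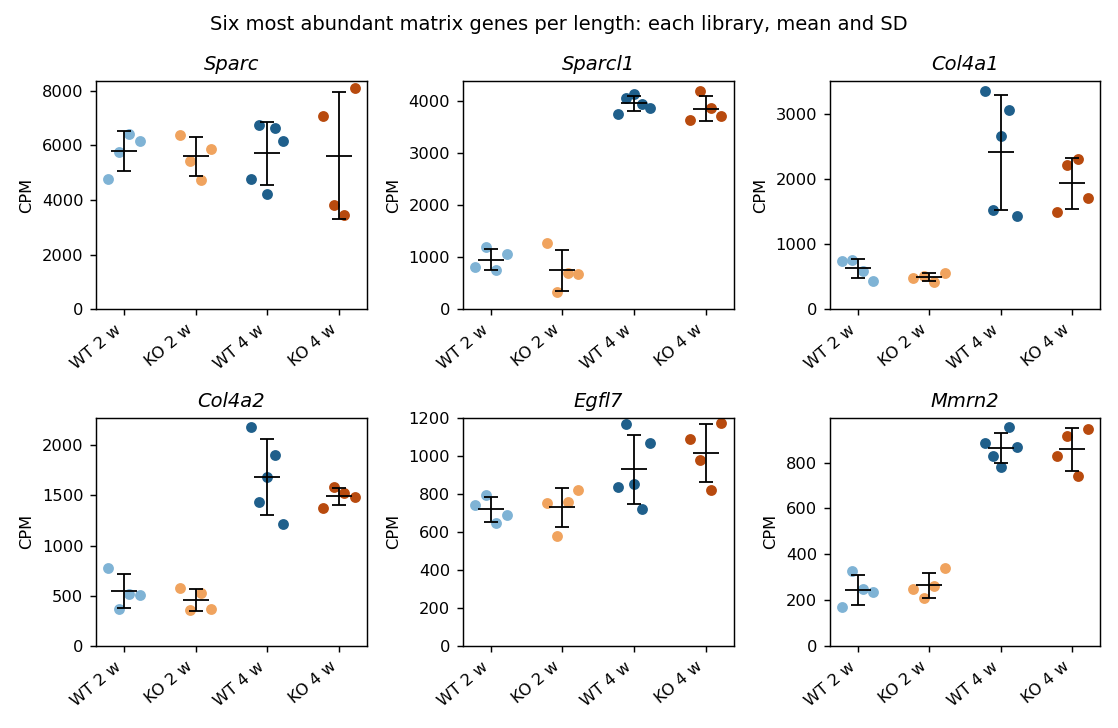
CPM of the 6 most abundant matrix genes per length, with 1 point per library and bars for mean and SD, in WT (blue) and KO (orange) at 2 weeks (light) and 4 weeks (dark). Sparcl1, Col4a1, Col4a2 and Mmrn2 of 4 weeks lie above all libraries of 2 weeks, while Sparc and Egfl7 overlap between the times.

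Elastic fibre genes and the remaining members passed in neither genotype. All 8 tested elastic fibre genes were higher at 4 weeks in WT and 7 of 8 in KO, with medians of 1.44 and 1.66. Fbln5 changed by 0.21 ± 0.31 in WT and 0.85 ± 0.33 in KO (edgeR adjusted p = 0.135), and Fbn1 by −0.03 ± 1.502 in KO. Of the collagens Col8a1 was at −0.45 ± 1.003 in WT, and of the multimerins Mmrn1 at −0.75 ± 2.70. The difference between the genotypes in these changes is the interaction given above, which no matrix gene passed.

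Marker lists moved with time too. Of 10 pan-endothelial markers, which include Mmrn2 and Egfl7 of the matrix list, 6 rose in each genotype, with medians of 1.08 and 1.09. Pecam1 rose by 1.17 ± 0.16 in WT and 1.18 ± 0.17 in KO, and Cdh5 by 1.11 ± 0.14 and 1.27 ± 0.15. All 7 sinusoidal markers were higher at 4 weeks in both genotypes, with medians of 2.33 in WT and 1.80 in KO, and 2 and 1 of them were called. Their sum stood at 306 to 706 CPM at 2 weeks and 1226 to 2501 CPM at 4 weeks. Of 9 arterial markers none was called in WT and 1 in KO, with medians of 0.25 and 0.64. Of 7 fibroblast markers 1 rose in each genotype, Pi16, with medians of 2.42 in WT and 1.53 in KO. Of 8 marrow stromal markers Foxc1 rose in KO and none in WT (medians 0.57 in WT and 0.42 in KO), and none of 8 smooth muscle and pericyte markers was called (1.02 and 0.23). Of 7 macrophage markers C1qb rose in KO and none in WT (3.35 and 2.59), and of 9 erythroid markers Slc4a1 rose in WT and none in KO (1.93 and 1.29). Of 9 neutrophil markers S100a8 fell in KO (medians 0.01 and −4.72). Of 6 osteoblast and 6 megakaryocyte markers none was called. Of 9 genes induced by cell dissociation, 6 rose in WT and 7 in KO, with medians of 3.09 and 3.92. Their summed level went from between 685 and 1677 CPM at 2 weeks to between 7931 and 12922 CPM at 4 weeks. The part of these differences in the rise of the matrix genes was not tested. Leaving mitochondrial genes out of library sizes and tests kept the same counts, 7 called in WT and 6 in KO.

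**Figure D4:**
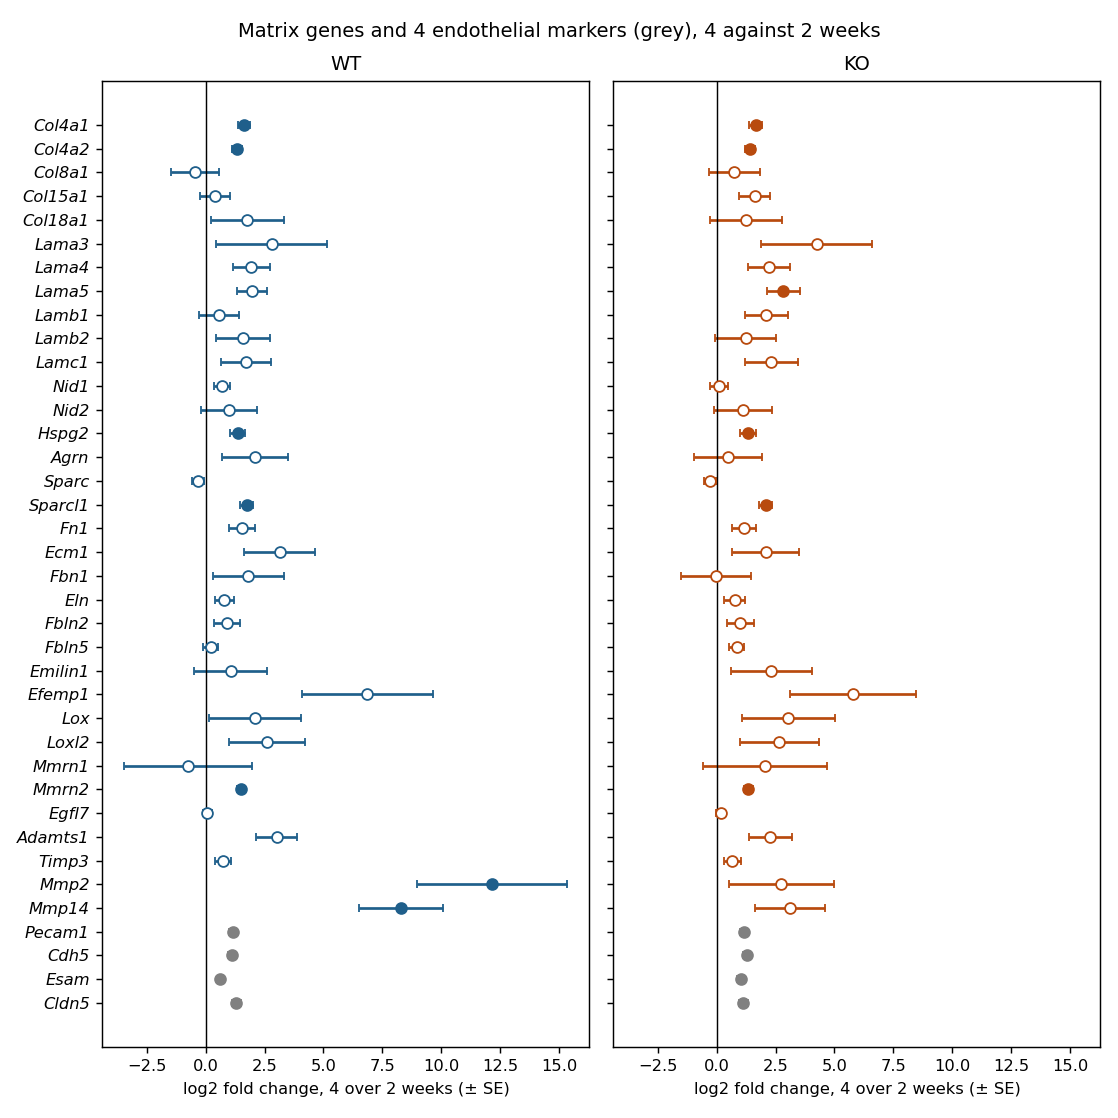
Log2 fold change of 4 over 2 weeks for the matrix genes in WT (left) and KO (right), with standard errors; filled points passed an adjusted p of 0.05, and 4 endothelial markers are in grey. Most points lie right of 0, as do the grey ones; the WT point of Mmp2 is a model estimate against 0 counts and has no readable size.

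Within the 4-week libraries, some matrix genes had the same libraries highest, across both genotypes. Adamts1 stood at 1137 CPM in WT f, 864 in WT m1, 818 in WT m2, 868 in KO m1 and 769 in KO m2. It stood at 419.9 CPM in WT m3, 188 in WT f3, 132 in KO f2 and 124 in KO m3. The highest value was 9.14 times the lowest. The same 5 libraries were the 5 highest of 9 for 10 of the 36 genes, Adamts1 included: Col4a1, Col4a2, Lama4, Lamb1, Lamb2, Nid1, Nid2, Fbln2 and the metalloproteinase inhibitor Timp3 were the others. All 10 were among the 34 tested genes, and of all 15209 genes tested at 4 weeks 7.4% had those 5 libraries highest and 3.73% had them lowest. The 5 libraries were taken from the values of Adamts1, a gene of the list, so setting the list beside all genes is not a test. Lamb2, for example, ranged from 399 to 513 CPM in those 5 and from 138 to 226 CPM in the rest, and Lama4 from 311 to 392 and from 136 to 182 CPM. Egfl7 showed the reverse, with the same 5 libraries lowest. Sparcl1 and Mmrn2 hardly took part, with the highest library 1.15 and 1.29 times the lowest.

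Some marker lists of other cells followed the same order. The summed smooth muscle and pericyte markers were highest in the same 5 libraries, at 2992 CPM in WT f, 2148 in KO m2, 2134 in WT m2, 1615 in KO m1 and 1339 in WT m1, and at 982, 881, 817 and 750.2 CPM in WT m3, KO f2, KO m3 and WT f3. Rgs5, a pericyte gene of that list, ranged from 284 to 2336 CPM, and Cspg4, another, from 0.0977 to 15.0 CPM. The order of the sum can rest on Rgs5 alone, and whether the other markers of the list followed it was not tested. The summed marrow stromal markers, led by Cxcl12, were also highest in the same 5 libraries, at 2713 to 3611 CPM against 1130.1 to 1574 CPM in the other 4. Summed arterial markers were lowest in them, at 3059 to 3902 CPM against 4026 to 4531 CPM. The sums of pan-endothelial, sinusoidal, osteoblast, fibroblast, megakaryocyte, macrophage, neutrophil and erythroid markers and of dissociation genes did not follow this order, and fibroblast markers were lowest in KO m1 and WT m1. All 8 smooth muscle and pericyte markers had more than 3 counts in 6 of the 9 libraries and 7 of 8 in the others. The part of these cells in the matrix values was not tested. The 5 libraries are 3 of 5 in WT and 2 of 4 in KO, and no group was formed from them for any comparison.

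**Figure D5:**
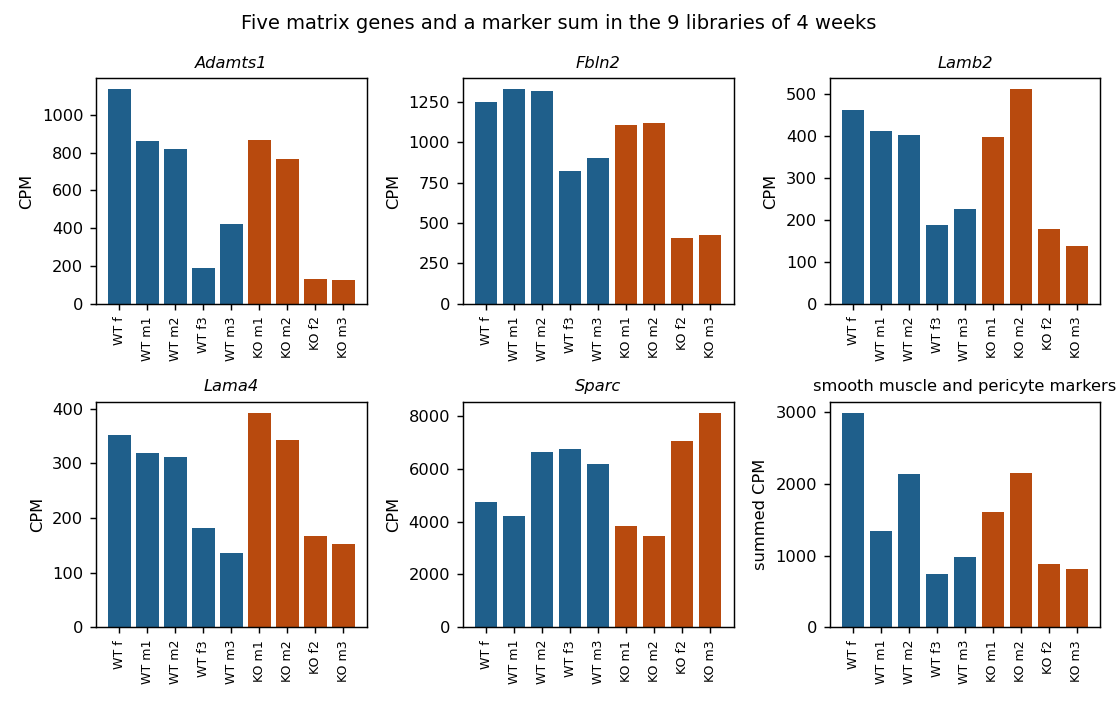
CPM of 5 matrix genes and the summed CPM of 8 smooth muscle and pericyte markers in each of the 9 libraries of 4 weeks, WT in blue and KO in orange, with 1 bar per library. Adamts1, Fbln2, Lamb2, Lama4 and the marker sum are highest in WT f, m1 and m2 and in KO m1 and m2, while Sparc is highest in KO m3.

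Other genes of matrix assembly were read from lists of related genes, and none was called between genotypes at either time. Of 16 other basement membrane genes 4 could be tested at 2 weeks and 10 at 4 weeks. The smallest p-values were those of Tinagl1, a basement membrane glycoprotein, at −0.44 ± 0.14 (edgeR adjusted p = 1), and Vwa1 at −0.74 ± 0.33 at 2 weeks, and of Smoc2 and the laminin chain Lama2 at 4 weeks. Smoc2 stood at 0 to 0.267 CPM in WT and 1.02 to 5.19 CPM in KO at 4 weeks, without overlap. Of other proteases and inhibitors, Adam15, a membrane-bound metalloproteinase, had the smallest p at 2 weeks. It stood at 849 to 951 CPM in WT and 501 to 663 CPM in KO, without overlap (−0.64 ± 0.12, edgeR adjusted p = 0.964), and its difference at 4 weeks was 0.01 ± 0.14. Adamts10 followed at 2 weeks, and Adam17 (−0.61 ± 0.29) and Timp4 (0.46 ± 0.25) were first at 4 weeks. Of interstitial matrix genes, Thbs1, which encodes thrombospondin 1, stood at 0 to 0.292 CPM in WT and 1.21 to 18.8 CPM in KO at 2 weeks, without overlap, and Col3a1 was next. At 4 weeks Col1a1 (−1.25 ± 0.48) and Postn (−1.19 ± 0.48) came first. Among 12 other elastic fibre genes, Ltbp4, which stores latent TGF-beta in the matrix, was at −0.42 ± 0.26 at 2 weeks and −0.80 ± 0.26 at 4 weeks in KO, followed by Ltbp3 and by Mfap2. Plod2 and Colgalt1 came first at both times among genes for collagen folding and secretion. For the effect common to both times the smallest p-values of the 5 lists were those of Smoc2 and Lama2, Thbs1 and Vcan, Ltbp4 and Loxl1, Adam15 and Mmp9, and Plod1 and Colgalt1. For the difference between times, those of 4 of the lists were Col6a2 and Thbs1, Efemp2 and Mfap5, Adam15 and Timp1, and Serpinh1 and Mia3, with no gene called in either fit. With time, 2 of 10 other basement membrane genes rose in WT, Col4a3 and Tinagl1, and 4 in KO, led by Tinagl1 and Vwa1, with none falling. Of 17 other interstitial matrix genes 5 rose in WT, led by Thbs1 and Col6a2, and 1 in KO, Igfbp7, with Col1a1 next (−1.87 ± 0.85). Of the other elastic fibre genes none was called in WT, where Ltbp4 and Loxl1 came first, and 1 in KO, Efemp2, before Loxl1. Of the other proteases and inhibitors none was called in WT, where Timp1 and Adamts9 came first, and 1 in KO, Adam15 (0.68 ± 0.14), before Timp4. Of 12 genes for collagen folding and secretion 2 rose in WT and 1 in KO, with medians of 0.90 and 1.16. Serpinh1, a collagen chaperone, rose by 1.82 ± 0.32 in WT, and P4hb, a subunit of prolyl hydroxylase, by 0.86 ± 0.20 in WT and 0.99 ± 0.21 in KO, where Plod1 came next (1.33 ± 0.46).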

How the data were processed

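SmartSeq2 RNA sequencing was done on 17 libraries of sorted marrow endothelial cells. The authors deposited 1 table of raw counts per library with 49585 Ensembl gene rows, made with cutadapt, STAR and HTSeq 0.6.1p1 on GRCm38 (mm10), per the submitters' processing notes; the annotation and strand setting are not given in the sources used here. Symbols, positions and exon lengths came from GENCODE M21, and 198 of 199 listed symbols matched. The members and lists were chosen with earlier results of these data known. Counts were fitted with edgeR 4.0.16 (R 4.3.3, limma 3.58.1): TMM scaling, filterByExpr within the libraries compared, robust quasi-likelihood tests with sex as a covariate, and Benjamini-Hochberg adjustment over all genes tested. Each time was fitted alone for the KO comparison, and all libraries jointly for the common effect, the interaction and time. Alternatives were DESeq2 1.42.0, its size factors in edgeR, no filter, no sex term, a replicate block, no mitochondrial genes, and leaving out libraries. The scripts were tested on simulated counts with large changes and less spread than the libraries of 2 weeks, so power at that time was not measured. Genes named by rule with every library's value were the 3 smallest p-values in each direction per time, the 6 most abundant per length in WT (mean of the 2 group means), and Col4a1 and Col4a2; for the other comparisons the 3 smallest p-values in each direction and the genes called are named, and of other lists the 2 smallest p-values, of which 1 result is not reported here. Adamts1, Lama5, Lamb2, Lama4, Timp3, Mmp14, Pecam1, Cdh5, Rgs5, Cspg4 and Cxcl12 were given values after these were seen. No duplicates were found within a group, where all pairs of libraries differed far beyond sampling noise; pairs across groups were not compared.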

Additional observations from a re-analysis of the deposited data

Results flagged for a closer look

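Of 60 groups of 4 or 5 libraries tested over the 15 genes named by rule with every library's value, 4 held a library that stood far from the rest, and chance gives about 1 in 20, which is close to this count. Mmp2 in WT of 2 weeks, at 0 in every library, is among the 60 but has no spread to test. Nid1 was at 194.68 CPM in KO f1 of 2 weeks, with the next library at 86.3 CPM. Ecm1 was at 37.8644 CPM in WT f4 of 2 weeks, with the next at 6.07 CPM. Ecm1 was at 32.5876 CPM in KO m2 of 2 weeks, with the next at 23.9 CPM. Mmp2 was at 22.0484 CPM in KO m3 of 2 weeks and at 0 in the other 3 KO libraries of that time, so that any value there would stand apart. All 4 were libraries of 2 weeks.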

How the results depend on the processing

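With edgeR, no matrix gene was called between genotypes under any alternative or with any 1 library left out, and the replicate block also gave 0 called genes in all 4 genotype comparisons. The labels do not say whether libraries with the same number belong together. Their deviations correlated at −0.02 to 0.05 at 2 weeks and 0.05 to 0.16 at 4 weeks, and not every library correlated best with its own number. The block joined the females of 4 weeks (WT f and f3, KO f2) although their numbers differ. DESeq2 called 2 genes, Mmp2 and Mmp14, for the difference between times and 11 genes for time in WT and 9 in KO. Leaving out 1 library gave 5 to 9 called genes for time in WT and 4 to 6 in KO.

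Some directions turned; the cause was not tested. At 2 weeks Col18a1 went to −0.0162 with no sex term, −0.12 with the replicate block and −0.30 without KO m2 and m3, and Agrn, at 1.92, to −0.60 with the block. Without KO m2 and m3, Sparc was at 0.13, Mmrn2 at −0.14 and Egfl7 at −0.24 at 2 weeks, and the differences between times were 0.84 for Mmp2 and 0.31 for Mmp14. At 4 weeks Mmrn2 was at −0.00238 with DESeq2 size factors, −0.00239 with DESeq2, −0.000645 with no filter and −0.000161 with the block, and Sparc at −0.00667 with no sex term and −0.0446 with the block. With time, Mmrn1 in WT, at −0.75, was at 0.55 with no sex term, and Fbn1 in KO at 0.0145 with DESeq2 size factors, 0.0146 with DESeq2 and 0.0915 with no sex term.

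Leaving out 1 library at a time gave, at 2 weeks, −0.43 to 0.0254 for Col4a2, −0.81 to 1.28 for Col18a1, −0.0653 to 0.64 for Nid1, −1.19 to 3.32 for Agrn, −0.11 to 0.072 for Sparc, −0.32 to 2.82 for Fbn1, −0.0347 to 0.37 for Mmrn2 and −0.076 to 0.13 for Egfl7. At 4 weeks it gave −0.39 to 0.00762 for Agrn, −0.29 to 0.19 for Sparc, −0.0648 to 0.00954 for Sparcl1, −0.25 to 0.17 for Fbln5 and −0.0568 to 0.079 for Mmrn2. The difference between times of Mmp2 ranged from −10.6 to 0.74. With time, Col8a1 in WT ranged from −0.78 to 0.0499, Mmrn1 in WT from −5.28 to 11.5 and Fbn1 in KO from −0.41 to 0.84.

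Counts over all genes moved more. DESeq2 called 149 genes at 2 weeks, 17 at 4 weeks, 39 for the common effect, 1303 for the difference, and 2938 and 2873 for time in WT and KO, against 0, 0, 1, 12, 1086 and 994 with edgeR. With no filter the last 3 were 6, 580 and 567. Leaving out KO m2 and m3 of 2 weeks gave 251 for the difference, and leaving out 1 library 7 to 51; for time it gave 588 to 1261 in WT and 504 to 1222 in KO, and for the common effect 0 to 3. Leaving out KO m2 and m3 was chosen after seeing the data for the common effect, the difference and time in KO. Genes with few counts at 2 weeks, the groups of 4 or 5 libraries and the spread at 2 weeks (median biological coefficient of variation of the matrix genes 93.1%, against 32.0% at 4 weeks) limit what could be detected.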
